A study of Mus musculus with 3 samples.

Results

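Plexins, semaphorins and neuropilins were followed in primary cultures of mouse mammary tumor cells treated with RANK ligand (RL). The 10 genes were the semaphorins Sema3c, Sema3e, Sema4a and Sema4d, the plexins Plxna1, Plxnb1, Plxnb2 and Plxnd1, and the neuropilins Nrp1 and Nrp2, out of 21154 gene symbols that could be matched to probes of the array. They were chosen by the same RL over control ratio that is described for them, because Plxnd1 was among the largest rises, and the other 9 were added as its relatives and partners. Their ratios are therefore a description, with no test, and support nothing. All 10 genes had a probe, 13 probes in all, and Plxnd1, Sema3c and Nrp2 had 2 each. All 10 passed the filter on dim probes, Sema3e only through its control channels.

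The cells came from 3 tumors of MMTV-PyMT mice, in which a viral promoter active mainly in mammary epithelium drives the polyoma middle T oncogene. The labels name primary tumor cultures and give no count of mice, while the methods describe cells from transplants. Of each tumor, called tumor 1, 2 or 3 here, 1 culture received RL for 24 h and 1 remained untreated, and all cultures grew with serum, cholera toxin, insulin and EGF. The labels give the dose of RL as 1000 µg/ml and the methods as 1 µg/mL. RNA of both cultures of a tumor was labeled with different dyes and hybridized together to 1 Agilent array, which gave 3 arrays and 6 channels on 1 slide. The RL channel was Cy3 for tumors 1 and 3 and Cy5 for tumor 2. The methods mention dye swaps of each sample, while the series holds 1 dye order for each tumor. The paper's statement on data availability names a different series, so its methods were taken to apply here from the match of arrays and treatment. Each tumor had 1 array, so tumor and dye order cannot be told apart. The median probe spot had an intensity of 42 to 45 in Cy3, over a local background of 31 to 36, and of 96.5 to 100.5 in Cy5, over 70 to 73. With 3 arrays, all means are imprecise. Across 21721 genes and transcripts, which are not independent replicates, the log2 ratios of tumors 1 and 3 had a Pearson's r of 0.452, and those of tumor 2 an r of −0.110 with tumor 1 and −0.105 with tumor 3.

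Semaphorins are secreted or membrane-bound guidance proteins, and plexins are the transmembrane receptors that read them. Secreted class 3 semaphorins mostly bind neuropilins, which lack a signaling domain of their own and sit in a complex with a plexin, whereas Sema3e binds plexin-D1 directly and membrane-bound class 4 semaphorins bind plexins without a neuropilin. The family is best known from growing axons and blood vessels, and in mammary tumor cells plexin-B1 is known to couple to the receptor kinases Met and Erbb2.

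Among the secreted ligands, Sema3c, which signals through neuropilins with plexin-D1 or A-type plexins, had log2 ratios of RL over control of 0.23, 0.10 and −0.05 in tumors 1, 2 and 3. Its second, dimmer probe gave 0.14, 0.17 and −0.12. Both probes were thus above 0 in tumors 1 and 2 and below 0 in tumor 3, and the mean of the brighter one was 0.09 ± 0.14 (SD, n = 3 tumors). Sema3e, the direct ligand of plexin-D1, had log2 ratios of −0.29, 0.26 and −0.15. Its mean was −0.06 ± 0.28 (SD, n = 3). The scanner software called its RL channel well above background in 2 of 3 tumors, yet the RL spots read 34.5, 111.5 and 34 over a local background of 36, 76 and 38, so those of tumors 1 and 3 did not exceed it. The control spot of tumor 2 read 38 over 37, so no tumor had both channels clearly above local background, and the ratios of Sema3e are uncertain in size and sign. The sign of Sema3e followed the dye order, and its spread between tumors exceeded its mean.

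Of the membrane-bound ligands, Sema4d, the classical ligand of plexin-B1, had log2 ratios of 0.09, 0.25 and −0.14 in tumors 1, 2 and 3. Sema4a, a ligand of plexin-B and plexin-D1 receptors, had −0.14, −0.10 and 0.17. Both genes were well above background in all 6 channels, and neither had 1 sign in the 3 tumors. Their means of 0.07 ± 0.20 and −0.03 ± 0.17 (SD, n = 3) lay within the spread between tumors.

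Plxnd1, the receptor of Sema3e and a regulator of vessel patterning, stood out among the receptors, as the choice of the genes requires. Its brighter probe, A_55_P2151822, read a normalized log2 intensity of 8.13, 9.18 and 9.35 in the control cultures of tumors 1, 2 and 3, and of 9.40, 9.46 and 10.24 in the RL cultures of the same tumors. RL was above control within each tumor, while the RL cultures of tumors 1 and 2 lay close to the control culture of tumor 3. The log2 ratios were 1.27, 0.28 and 0.88 in tumors 1, 2 and 3, which corresponds to 2.42-fold, 1.21-fold and 1.84-fold. The mean was 0.81 ± 0.50 (SD, n = 3), or 1.75-fold. The smallest ratio belonged to tumor 2, the only one with RL in Cy5. A fit with a dye term gave 0.68 for RL and −0.40 for RL being in Cy5. By the mean of this probe, Plxnd1 ranked 5 among 21743 genes and transcripts, between Fcgbp with 0.82 and Nfkbia with 0.77. The rank depends on the choice of probe, since the mean over both probes was 0.48.

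The other probe of Plxnd1, A_52_P472319, carries the same transcript annotation and gave smaller ratios. In control cultures its log2 intensity was 6.86, 7.12 and 7.23 in tumors 1, 2 and 3, and with RL it was 7.05, 7.20 and 7.40. The log2 ratios were 0.19, 0.09 and 0.17, with a mean of 0.15 ± 0.06 (SD, n = 3). Both probes were above 0 in every tumor and both were smallest in tumor 2, but they differed in size. The spots of this probe read 73 to 189.5, over a local background of 28 to 68, and those of the brighter probe 361.5 to 937. An offset of 50 added in the background correction compresses the ratios of dim spots. From the scanner software's processed signals, which have no such offset, the dimmer probe gave 0.41, 0.22 and 0.27 and the brighter one 1.44, 0.27 and 0.91. The means of 0.30 and 0.87 still differed. Those signals also differ in other steps, and the cause of the gap between the probes was not tested. Averaging both probes gave a mean log2 ratio of 0.48 for the gene. When arrays were centered on their median in place of loess, the dimmer probe gave 0.01, 0.33 and −0.10 in tumors 1, 2 and 3. The brighter one gave 0.84, 0.76 and 0.42.

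Plxnb1, the receptor of Sema4d, had a control log2 intensity of 9.57, 9.84 and 9.88 in tumors 1, 2 and 3, and of 10.29, 10.03 and 10.08 with RL. The log2 ratios were 0.72, 0.19 and 0.20, with a mean of 0.37 ± 0.30 (SD, n = 3). All 3 were above 0 and tumor 1 stood apart, since the mean without it was 0.20. With median centering, tumors 1, 2 and 3 gave 0.26, 0.68 and −0.23. Plxnb2, another receptor of class 4 semaphorins, had log2 ratios of 0.08, 0.13 and −0.24, and Plxna1, a partner of neuropilins, had 0.11, −0.02 and 0.04. Neither had 1 sign in the 3 tumors, and both means, −0.01 and 0.04, were within the spread between tumors.

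**Figure D1:**
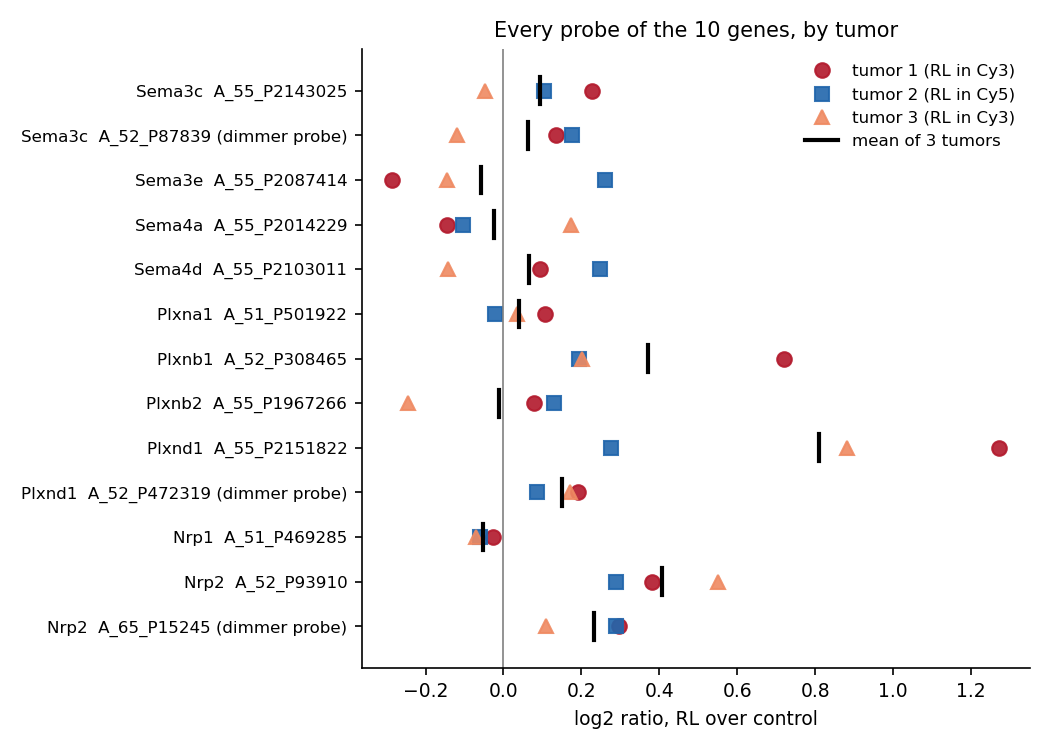
Log2 ratio of RL over control for each of the 13 probes of the 10 genes, with points for the 3 tumors and bars for their mean. The brighter Plxnd1 probe reaches 1.27 in tumor 1 and 0.28 in tumor 2, both Nrp2 probes lie above 0 in every tumor, and most other probes scatter around 0.

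Of the co-receptors, Nrp2 is known for binding Sema3f and Vegfc. Its control log2 intensity was 10.95, 10.86 and 10.66 in tumors 1, 2 and 3, and it was 11.33, 11.15 and 11.21 with RL. Every RL culture was above every control culture. The log2 ratios were 0.38, 0.29 and 0.55, with a mean of 0.41 ± 0.13 (SD, n = 3). Its second probe, annotated to another Nrp2 transcript, gave 0.30, 0.29 and 0.11, with a mean of 0.23 ± 0.11. Among the 10 genes, Nrp2 was the one whose ratio was above 0 on all arrays with the least difference between dye orders relative to its mean, 0.38 for RL and −0.09 for RL being in Cy5. With median centering, tumors 1, 2 and 3 gave −0.13, 0.82 and 0.10 on the brighter probe and −0.05, 0.62 and −0.18 on the other. The median of all genes was −0.11 in that setting. Nrp1, the co-receptor of Sema3a and Vegfa, was dim, with a control log2 intensity of 6.23, 6.48 and 6.57. Its log2 ratios were −0.03, −0.06 and −0.07, of which that of tumor 1 was 0.01 with median centering. The RL spots of Nrp1 read 35, 98 and 45.5 over a local background of 33, 68 and 32. Its ratios are therefore uncertain, and a difference between Nrp1 and Nrp2 was not tested.

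**Figure D2:**
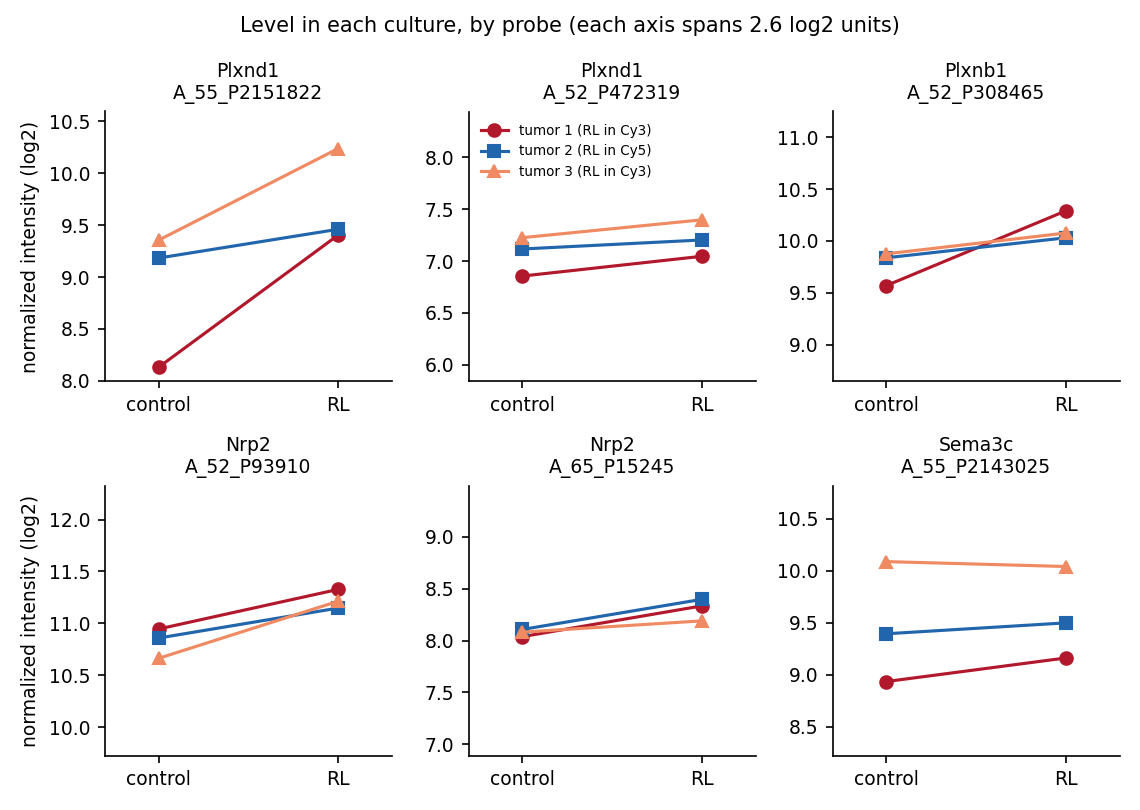
Normalized log2 intensity of the control and the RL culture of each tumor, joined by a line, for 6 probes, in panels of different range and equal width, so that levels compare within 1 probe only. Plxnd1 starts at 8.13 in tumor 1 and at 9.35 in tumor 3, and Sema3c differs more between tumors than between treatments.

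Taken over the 10 genes, 3 had a log2 ratio above 0 on all 3 arrays (Plxnd1, Plxnb1 and Nrp2), against 14.2% of all genes, and 1 (Nrp1) was below 0 on all 3, against 13.3%. The median of their means was 0.05, and it was −0.0006 over all genes tested. By tumor it was 0.10, 0.16 and −0.01. No member passed an adjusted p of 0.05 in limma, where 0.0276% of all genes did. At an unadjusted p under 0.05 it was 3 members, against 7.16% of all genes, by rank product 2 members, against 0.35% of all genes, and in limma with a dye term 2 members, against 1.13%. Because the ratio chose the genes, nothing is read from these counts. With median centering the median of the 10 genes was −0.04, where that of all genes was −0.11, and the means of Plxna1, Sema3c and Sema4d changed sign.

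The untreated cultures differed in 2 of these genes. The control level of Plxnd1 spanned 1.22 log2 units between tumors, with tumor 1 lowest and tumor 3 highest, and 94.6% of all genes had a smaller span. This was read from the brighter probe, and the dimmer one spanned 0.37. Sema3c spanned 1.16, from 8.93 in tumor 1 over 9.39 in tumor 2 to 10.09 in tumor 3, and its dimmer probe read 6.93, 7.10 and 7.82. Both probes of each gene put the tumors in the same sequence. The median span over all genes was 0.31, and the other 8 genes lay between 0.17 and 0.58. With 1 control culture a tumor, the difference between tumors has no replicate check, and the control of tumor 2 was in Cy3 while the others were in Cy5. Marker sums of the control cultures also differed. Basal epithelial markers summed to a normalized intensity of 43774, 79393 and 128655 in tumors 1, 2 and 3, in the same sequence as Plxnd1 and Sema3c, and fibroblast markers to 9416, 4333 and 18447.5, likewise highest in tumor 3. Krt14 was the brightest basal marker. The NF-κB genes summed to 14745, 19349.7 and 23213, also in the sequence of Plxnd1 and Sema3c. Epithelial markers summed to 342919, 229159 and 407520, and myeloid markers to 25354, 14548 and 16410.1, the last highest in tumor 1. Cd14 and Itgam made up most of the myeloid sum, with mean control log2 intensities of 13.34 and 12.35. Ptprc and Adgre1 had 6.29 and 6.37, so the sum is no measure of myeloid content. Whether the cell types of the cultures account for the spans was not tested.

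As Plxnd1, Plxnb1 and Nrp2 shared their sign on all arrays, the promoters of the family were read from the RefSeq promoter table (build GRCm38.p6), which covers 250 bases before to 50 after a transcription start. It held 15 promoters of 9 of the 10 genes. The promoter of Plxnd1 is at chr6:115994956-115995255 on the minus strand, and capitals mark a box of 7 letters, GGCGTGG, found after its sequence was seen.
Plxnd1: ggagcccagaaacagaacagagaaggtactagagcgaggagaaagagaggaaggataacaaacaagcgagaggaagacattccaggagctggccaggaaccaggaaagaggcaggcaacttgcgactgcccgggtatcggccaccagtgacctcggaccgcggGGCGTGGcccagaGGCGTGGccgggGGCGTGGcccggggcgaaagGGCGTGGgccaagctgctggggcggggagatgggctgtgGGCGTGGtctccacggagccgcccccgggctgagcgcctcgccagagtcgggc
The box occurs 5 times, each on the strand of the gene, beginning 87, 74, 62, 42 and 3 bases before the start. Searched on both strands, it was in 1 of the 15 promoters, that of Plxnd1, and in 8.55% of the 32851 promoters searched. Part of the table was left out of the search, and the shares given here are of the 32851. Of all 32851, 6 (0.0183%) held it at least 5 times. The promoter of Plxnd1 had 67% GC, more than 85.59% of promoters, whose median was 52.67%. These shares were not matched for GC. The NF-κB consensus, a motif of 10 letters searched on both strands, was in 1 of the 15 promoters, 1 of those of Sema4a, and in 4.51% of all promoters. Of the 7 NF-κB genes listed here, 6 had promoters in the table, 8 in all. The consensus was in 5 of these 8, from Nfkb2, Nfkbia and Nfkbie. The box, picked because it recurs in the promoter of Plxnd1, was in 3 of the 8, from Nfkb2 and Nfkbie. These matches describe letters in a short window and no binding.

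The genes most like Plxnd1 were found by Euclidean distance over the 3 log2 ratios among 13674 named genes well above background in all 6 channels. They were Alox12e (distance 0.21), a lipoxygenase, Traf1 (0.27), an adaptor of TNF receptors, Chadl (0.32), C1qtnf1 (0.50) and Fcgbp (0.52). Alox12e had log2 ratios of 1.35, 0.32 and 1.07 in tumors 1, 2 and 3, and Traf1 had 1.14, 0.31 and 0.65. The distance was taken over the ratios that chose Plxnd1, so similar ratios follow from the search. The sequence of tumors was not shared by all, since Fcgbp had 1.16, 0.70 and 0.59 in tumors 1, 2 and 3.

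RL signals through RANK to NF-κB, and 7 genes known to answer this pathway gave a yardstick for the cultures. All 7 were above 0 in every tumor, with a median log2 ratio of 0.62, which was 1.15, 0.47 and 0.27 in tumors 1, 2 and 3. They ranged from 0.44 for Birc3 over Icam1 (0.49), Relb (0.55), Nfkb2 (0.62), Traf1 (0.70) and Nfkbie (0.75) to 0.77 for Nfkbia. These values rest in part on tumor 1. Without it the median was 0.37, with Relb at 0.25, Nfkb2 at 0.31, Nfkbia at 0.42 and Nfkbie at 0.47. With the processed signals Icam1 was 0.97, so the order of the 7 depends on the signal used. No gene of the 7 passed the adjusted p of 0.05 in limma (lowest 0.200, for Icam1). All 7 had an unadjusted p under 0.05, against 7.16% of all genes. Rank product called 4 at a proportion of false positives under 0.05, against 0.35%. In limma with a dye term, where tumor 2 alone stood for RL in Cy5, the 7 lay between 0.46 for Birc3 and 0.71 for Nfkbie. On its brighter probe the ratio of Plxnd1 in tumor 3 (0.88) was above each of the 7, which reached 0.65 there with Traf1, and in tumor 2 (0.28) it was below each of them. On its dimmer probe it was 0.17 in tumor 3, above Birc3 alone (0.16), and 0.09 in tumor 2. These genes were listed with earlier results of the same arrays known.

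The rest of the family and its pathway was tested in the fit over all genes. Its genes were listed by role, but with earlier results of the same arrays known. Of 77 genes in 8 lists, 65 were tested, and none passed the adjusted p of 0.05 in limma. Without adjustment, 3 had a p under 0.05 and a mean above 0 and 4 a mean below 0, against 3.61% and 3.56% of all genes, the rank product called 0, against 0.35%, and limma with a dye term called 1, against 1.13%. Of the 65 genes, 11 were above and 11 below 0 on all 3 arrays, against 14.2% and 13.3% of all genes, and their median log2 ratio was 0.006, where that of all genes tested was −0.0006.

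Of the other plexins, Plxna2 and Plxna3 were tested, while Plxna4, Plxnb3 and Plxnc1 were too dim in both conditions to be tested. Plxna3 had log2 ratios of −0.27, −0.02 and −0.11 (adjusted p = 0.777 from limma) and Plxna2 a mean of 0.04. Of the other class 3 semaphorins, Sema3b and Sema3f were tested, and Sema3f, the ligand of Nrp2, had a mean of 0.04, which was −0.11 with median centering. Sema3a, Sema3d and Sema3g were too dim in both conditions to be tested. All 4 other class 4 semaphorins were tested. Sema4g had −0.22, −0.05 and −0.36 in tumors 1, 2 and 3 (adjusted p = 0.628 from limma), and Sema4b a mean of 0.07, which was −0.08 with median centering. Of the class 5, 6 and 7 semaphorins, 6 of 7 were tested, and none had 1 sign on all 3 arrays. Their median log2 ratio of −0.09 was −0.01 without tumor 1 and −0.16 without tumor 2.

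Several genes of these lists had ratios that turned with the dye order, and they are named because of their values. Sema4c, a ligand of plexin-B2, had log2 ratios of −0.54, 0.56 and −0.59 in tumors 1, 2 and 3. Sema6d had −0.57, 0.52 and −0.49, and Dpysl5, of the collapsin response mediator family, had −0.37, 0.54 and −0.42. In each, tumor 2 was the only one above 0, and a fit with a dye term gave −0.001 for RL in Sema4c, −0.006 in Sema6d and 0.07 in Dpysl5. This sign pattern, shared by tumors 1 and 3 and opposite in tumor 2, held for 20 of the 65 tested genes and 2 of the 10 (Plxna1 and Sema3e), against 34.6% of all genes. Leaving out tumor 2 put 8 of the 65 genes past the adjusted p of 0.05 in limma, beside 1333 of all 21743 genes and transcripts. Of the 8, Sema4c, Sema6d, Dpysl5, Sema5a and Flt1 had the opposite sign in tumor 2, whereas Rnd1, Pgf and Sema4g had 1 sign in all tumors.

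**Figure D3:**
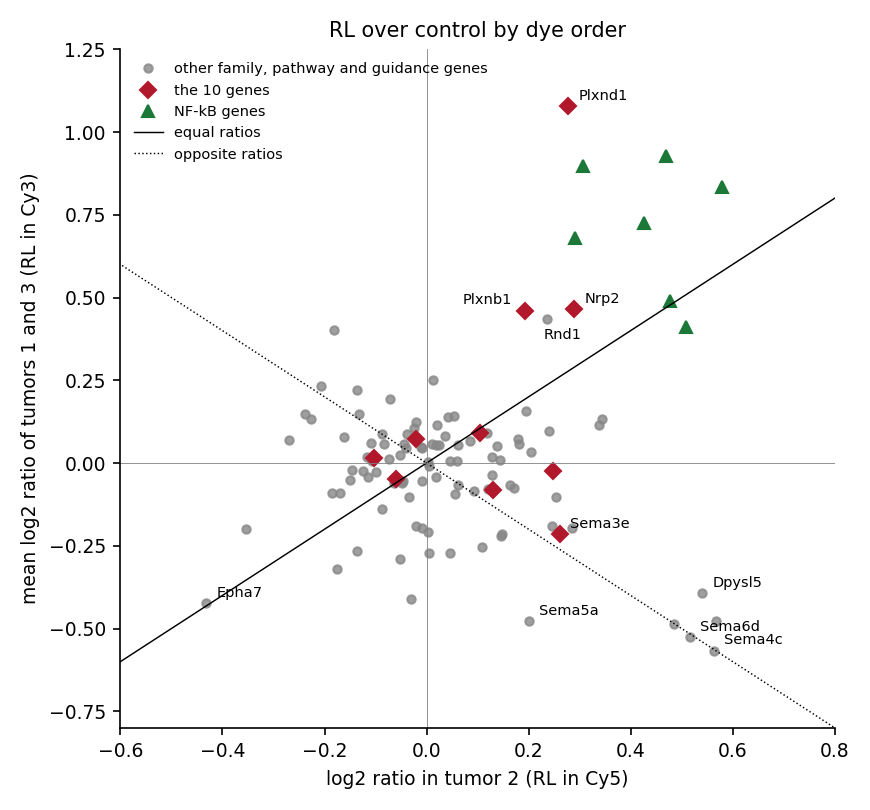
Log2 ratio of RL over control in tumor 2 (horizontal axis, RL in Cy5) against the mean of tumors 1 and 3 (vertical axis, RL in Cy3) for the tested genes of the family, pathway, guidance and NF-κB lists. The NF-κB genes, Plxnd1, Nrp2 and Plxnb1 are above 0 on both axes, whereas Sema4c, Sema6d and Dpysl5 lie near the dotted line of opposite ratios.

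Among receptors that pair with plexins or neuropilins, 10 of 12 were tested and 0 passed the adjusted p in limma, with 0 higher and 1 lower at an unadjusted p under 0.05, against 3.61% and 3.56% of all genes. Timd2, a receptor of Sema4a, had log2 ratios of −0.49, −0.14 and −0.05 (adjusted p = 0.686 from limma), with a mean of −0.22 that was −0.09 without tumor 1, and Mst1r, the receptor of macrophage-stimulating protein, a mean of −0.05, which was −0.25 with the processed signals. Met and Erbb2, the kinases known to couple to plexin-B1, had means of −0.004 and −0.03. Of the 5 growth factors of the VEGF family, which bind neuropilins, 4 were tested. Pgf had −0.56, −0.03 and −0.27 (adjusted p = 0.564 from limma), a mean of −0.28 that was −0.15 without tumor 1. Vegfb had a mean of −0.12 and Vegfc a mean of 0.11, which were −0.25 and −0.04 with median centering. The 4 proteases that shed or cleave semaphorins were all tested. Their median log2 ratio of 0.02 had no stable sign, with −0.04 without tumor 1 and −0.02 with a dye term, and Furin had a mean of −0.08, which was −0.23 with median centering.

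Inside the cell, plexins act on small GTPases and the cytoskeleton, and 33 of 35 such genes were tested. Rnd1, a GTPase that binds the cytoplasmic part of plexins, had log2 ratios of 0.58, 0.24 and 0.30 in tumors 1, 2 and 3. Its mean was 0.37 ± 0.18 (SD, n = 3), higher in 3 of 3 tumors, and it did not pass in limma (adjusted p = 0.312). Limma with a dye term gave 0.34 for RL, with an adjusted p of 0.0229, and called no other gene of these 8 lists. In that fit tumor 2 alone stood for RL in Cy5, so the residual spread behind its p came from tumors 1 and 3. A second, dimmer probe of Rnd1 gave 0.35, 0.15 and 0.20, so both probes were above 0 in each tumor. Over the other settings run for it the mean of Rnd1 lay between 0.20 with median centering and 0.44 without tumor 2. Farp2, an exchange factor for Rac downstream of plexin-A receptors, had −0.20, −0.35 and −0.20 (adjusted p = 0.452 from limma), and Dpysl2 had 0.22, 0.34 and 0.05 (adjusted p = 0.646). The median of the 33 genes was 0.02.

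**Figure D4:**
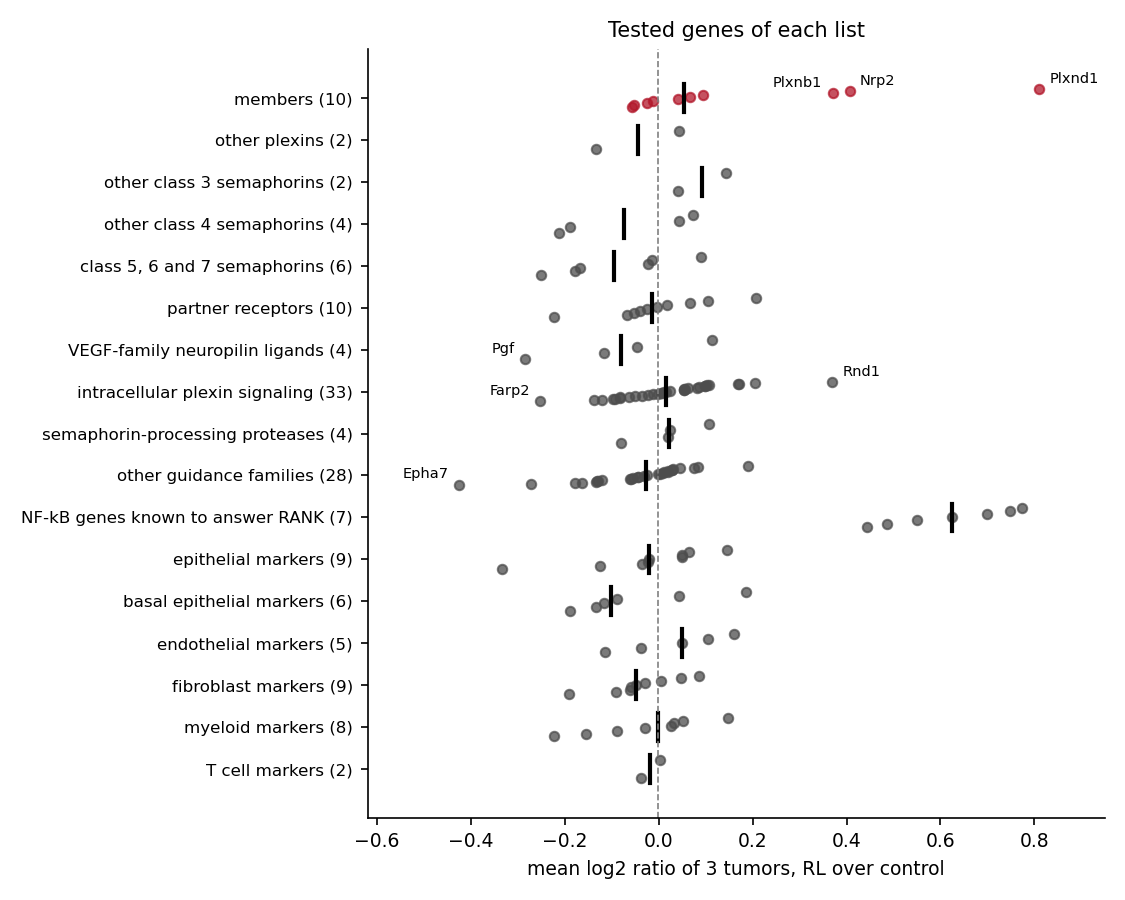
Mean log2 ratio of RL over control of each tested gene, by list, with the number of tested genes in parentheses, bars for list medians and a dashed line for the median of all genes tested. The NF-κB list lies between 0.44 and 0.77, and the medians of all other lists lie between −0.10 and 0.09.

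Other guidance families were set beside the semaphorins. Of 36 Slit, Robo, netrin, ephrin and Eph genes, 28 were tested and 0 passed the adjusted p of 0.05 in limma. Without adjustment, 1 with a p under 0.05 was higher and 2 lower, against 3.61% and 3.56% of all genes, by rank product 0, and in limma with a dye term 1 was lower. That gene was Epha7, an ephrin receptor, with log2 ratios of −0.71, −0.43 and −0.14 in tumors 1, 2 and 3 (adjusted p = 0.356 from limma and 0.0096 with a dye term). A dimmer probe of Epha7 gave −0.39, 0.16 and −0.19, of mixed sign. Epha4 had −0.39, −0.17 and −0.26 (adjusted p = 0.407), and Slit2, a Robo ligand, had 0.05, 0.34 and 0.18 (adjusted p = 0.679).

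The cultures expressed epithelial genes, while the labels name tumor cultures and no cell type. All 9 epithelial markers were tested, Krt18 was the brightest, and their median log2 ratio was −0.02, with 0.17, −0.16 and −0.04 in tumors 1, 2 and 3. Of 7 basal epithelial markers 6 were tested, with a median of −0.10 over their means, which was 0.01 without tumor 1, and of 0.04, −0.01 and −0.002 in tumors 1, 2 and 3. Of these Trp63 alone had 1 sign on all arrays, with a mean of 0.04, which was −0.11 with median centering, and its other probe gave −0.06, 0.11 and −0.18, of mixed sign. In bulk cultures, a change in the share of a cell type and a change in RNA per cell cannot be told apart.

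Plxnd1 and Nrp2 are also expressed by endothelial cells, and markers of these were read for that reason. Of 10 markers 5 were tested (Pecam1, Cldn5, Esam, Eng and Kdr), whereas Cdh5, Tek, Tie1, Emcn and Vwf were too dim in both conditions to be tested. Cldn5 passed the filter only through its RL channels, and the median given below for tumor 3 is its value. The summed normalized intensity of the tested markers was 2200.0, 2189.5 and 2149 in the control cultures of tumors 1, 2 and 3, and 2440.3, 2139.9 and 2390.3 with RL, and Kdr made up most of it, with a mean control log2 intensity of 10.85. Their median log2 ratio was 0.07, 0.15 and 0.01 by tumor, and Esam alone had 1 sign on all arrays, with a mean of 0.16 (adjusted p = 0.723 from limma) that was 0.03 with median centering. Fibroblast markers (9 of 9 tested) had medians of −0.28, 0.10 and −0.04 in tumors 1, 2 and 3, with Pdgfra at −0.38, −0.15 and −0.04, a mean of −0.19 that was −0.10 without tumor 1. Myeloid markers (8 of 8, with Ptprc past the filter only through its RL channels) had −0.10, −0.08 and −0.02, and the median of their means was −0.002. Their means ran from −0.22 for Cd68 and −0.16 for Tyrobp to 0.15 for Cd14, and 4 of the 8 were above 0. With median centering Cd68 was −0.39 and Tyrobp −0.32, where the median of all genes was −0.11. T cell markers (2 of 6) had 0.02, −0.01 and −0.07. No gene of these 6 marker lists passed the adjusted p of 0.05 in limma, and rank product and the dye term called 0. Pdgfra and Cd68 had an unadjusted p under 0.05, against 7.16% of all genes. The part of any cell type in the ratios of Plxnd1, Plxnb1 and Nrp2 was not tested.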

How the data were processed

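Per the file headers, the authors read the spots with Agilent Feature Extraction (version 10.7.3.1 in the submitters' processing notes) and deposited the median intensity of each spot and of its local background, together with processed intensity values corrected for background and dye by that software. The authors also deposited normalized log2 ratios. The methods report expression as the log2 ratio of a condition to its control, but set against the scanner values across genes the deposited columns ran as Cy5 over Cy3 on all 3 arrays (Pearson's r 0.963, 0.956 and 0.962, slopes 1.15, 1.17 and 1.15, medians 0.0024, −0.0011 and 0.0004), so tumors 1 and 3 were turned. Their exact scale was not recovered.

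The analysis used limma 3.58.1 under R 4.3.3, with the steps that the study's methods name: normexp, intensity loess, spatial loess (on row and column) and Aquantile. The methods give no settings for these, and an offset of 50 and a span of 0.1 were set here. Control spots and outlier spots (204, 195 and 223) were left out. Accessions without version were matched to the RefSeq table, which named 28026 of 55681 probes. The array was designed on another build, so its probes have no coordinates here. Probes well above background in all 3 control or all 3 RL channels were kept, and a gene was represented by its brightest one. This gave 21743 genes and transcripts, of which 21721 had a value on all arrays. Ratios of RL over control, paired by tumor, went into lmFit and eBayes, with 2 degrees of freedom from the residuals and 6.89 from the prior, and p was adjusted by Benjamini-Hochberg at 0.05. Probe levels are normalized log2 intensities per channel, open to dye bias.

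The members and lists were chosen with earlier results of these data known. Named were the 10 genes, all 7 NF-κB genes and the 5 genes nearest to Plxnd1. Each other list gave the genes past the threshold, or else up to 3 tested genes with the largest mean of 1 sign on all arrays. Other genes were named for their role, brightness, range or dye pattern, among them Met, Erbb2, Kdr, Cd14 and Sema4c. Alternatives were a dye term, the methods' rank product (with an analytic proportion of false positives), an intensity trend, other background and normalization steps, other filters, the mean over probes, the authors' ratios, and each tumor left out.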

Additional observations from a re-analysis of the deposited data

How the results depend on the processing

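The count of genes past the adjusted p of 0.05 in limma, 6 of 21743 (1 higher, 5 lower), moved with most settings. It was 245 with a dye term, 76 by rank product, 34 with an intensity trend, 17 without background correction, 3 without a filter on dim probes, and 0 both with the processed signals and with median centering. With 1 tumor left out it lay between 2 and 1333, the latter without tumor 2, which leaves arrays of 1 dye order. The count of other family and pathway genes was 0 of 65. It was 1 (Rnd1) with a dye term, and between 0 and 8 with 1 tumor left out, 8 being without tumor 2. The log2 ratio of Plxnd1, 0.81, lay between 0.48 with the mean over probes and 1.08 without tumor 2. Aquantile, the filters and the handling of outlier spots cannot change its probe's ratio and are no check of it. The median of the 10 genes, 0.05, was −0.041 with median centering and between 0.04 and 0.14 with 1 tumor left out, and the cause of these moves was not tested. The means of Plxnb2, Sema3e, Sema4a and Sema4d changed sign in 2 settings each, and those of Plxna1 and Sema3c in 1. The medians of most other lists are near 0 and changed sign with median centering or with 1 tumor left out. With median centering the means were −0.27 for Plxna3, −0.41 for Farp2, −0.35 for Timd2, −0.44 for Pgf and 0.07 for Dpysl2. The median of all genes was −0.11 in that setting. Sema3e gave no value with the filter on all 6 channels. Signal over background limits Nrp1, Sema3e and the dimmer Plxnd1 probe.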
